A study of Homo sapiens with 6 samples.

Results

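The lysosome is the acidic compartment in which cells break down proteins, glycans, lipids and sulfated sugars. Soluble hydrolases do the cutting, heavily glycosylated membrane proteins line the organelle and carry cargo and ions across it, and the vacuolar H+-ATPase (V-ATPase) acidifies it. The V-ATPase joins a cytosolic V1 sector, which hydrolyses ATP, to a membrane-embedded V0 sector, which moves protons, and it also takes part in amino acid signalling to mTORC1 at the lysosomal surface. Many lysosomal genes carry the E-box CACGTG near their start and are known targets of the MiT/TFE transcription factors, TFEB, TFE3, MITF and TFEC.

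The transcripts described here are 61 of the 28265 rows of the gene count tables. They comprise 34 named lysosomal hydrolases and membrane proteins and 27 rows whose symbol begins with ATP6V or ATP6AP followed by a digit, leaving out symbols with a hyphen. Of the 61, 24 are V1 or V0 subunits or accessory proteins of the V-ATPase, and 3 (ATP6AP1L, ATP6V1FNB and ATP6V0CP3) share only the name pattern. A filter on low counts kept 57 members for testing, 55 of them in every library of both groups. ATP6V1B1 and ATP6V1FNB passed it through the GlnIND libraries alone, so their differences support nothing. The 4 that did not pass were NEU1, ATP6V1G2, ATP6V1G3 and the pseudogene ATP6V0CP3.

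MDA-MB-231 is a human triple-negative breast cancer cell line with mesenchymal features. The parental line (3 libraries) was grown with glutamine in RPMI 1640 and 10% fetal bovine serum. The glutamine-independent derivative MDA-MB-231GlnIND (3 libraries, called GlnIND here) had been kept for more than 6 weeks in the same medium without glutamine, with 10% dialysed serum. Glutamine, serum type and the derivation of the line therefore change together and cannot be told apart. No label states separate cultures for the libraries of a group. Every p-value here therefore rests on the spread among libraries alone, and that spread may be technical.

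Gene totals ranged from 18256219 to 24594248 counts per library. The markers VIM, AXL, CD44, FN1 and KRT18 lay between 97.6 and 6077 CPM (counts scaled to a common library size after TMM factors) in the group means, and ESR1, PGR and CDH1 were close to 0. ERBB2 (36.1 and 63.7 CPM in parental and GlnIND) and EPCAM (14.3 and 2.22 CPM) were detected. Of 8 markers of other cell types, 4 passed the filter. The summed level of the 8 was 7.72 to 10.1 CPM in parental and 17.5 to 18.7 CPM in GlnIND libraries, led by COL1A1 (5.00 and 12.3 CPM). The level of PTPRC, VWF, DCN and ALB was near 0. CD14, PECAM1 and ACTA2 were the remaining markers. ACTA2 had 130 counts over all libraries, and CD14 passed the filter in all GlnIND but only 1 parental library. The part of these markers in the results was not tested. Parental library 1 stood apart from the others. The SD of its gene-wise log2 difference was 0.466 and 0.489 to the other parental libraries, which differed from each other by 0.36, and 0.271 to 0.283 between GlnIND libraries. In parental library 1 the tenth of tested genes richest in GC lay 0.45 below the mean of all libraries on the log2 scale, against 0.02 to 0.15 above it in the other libraries. Across 54 members above 1 CPM, the log2 ratio of parental library 1 to the mean of libraries 2 and 3 fell with transcript GC content (Pearson r = -0.465, Spearman rho = -0.424, a description over genes of the same libraries). Values without this library are given where it changes a call or moves a named value by much.

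GlnIND cells had less mRNA for several of the most abundant lysosomal proteins, CTSC, IDS, CD63 and LAMP2 among them. They had more for PSAP, for the glycosidases MAN2B1 and GLB1 and for the V-ATPase subunits ATP6V0A1 and ATP6V1A. Of the 57 tested members, 19 were higher and 15 lower in GlnIND at an adjusted p under 0.05 (edgeR quasi-likelihood test, Benjamini-Hochberg over 13949 genes), and 23 were not called. That is 33.3% higher and 26.3% lower, beside 28.4% and 27.9% of all genes tested, and 59.6% called in all beside 56.3%. The median log2 fold change (GlnIND minus parental) was 0.10 over the members and 0.03 over all genes. Changes over 2-fold were called in 8 members, ATP6V1B1 among them, 4 higher (9.84% of all genes) and 4 lower (5.26% of all genes), against 15.1% of all genes in either direction. The ranges of the groups did not overlap in 41 members, 27 with GlnIND above and 14 with GlnIND below, beside 65% of all genes (33.7% and 31.3%). The 19 higher members include ATP6V1B1, and the 27 include ATP6V1B1 and ATP6V1FNB. These genes passed the filter through the GlnIND libraries alone and add no support to either count. As a whole, the share of members called was therefore close to that of the transcriptome. In bulk RNA, fewer cells of a type and less RNA per cell cannot be told apart. Without parental library 1 there were 20 higher and 19 lower members, beside 32.3% and 32.9% of all genes, and all 34 calls kept their direction and threshold, while the members' median was 0.05. The split depended on the scaling. Library totals alone gave 25 higher and 10 lower members (38.4% and 20.1% of all genes), and upper-quartile factors gave 25 and 11 (34% and 23%). These scalings moved the median of all genes to 0.18 and 0.12, and the members' median lay 0.06 above that of all genes under each of the 3 scalings, 0.03 above it without parental library 1, and on the other side of it (-0.023) with the GC trend removed.

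**Figure D1:**
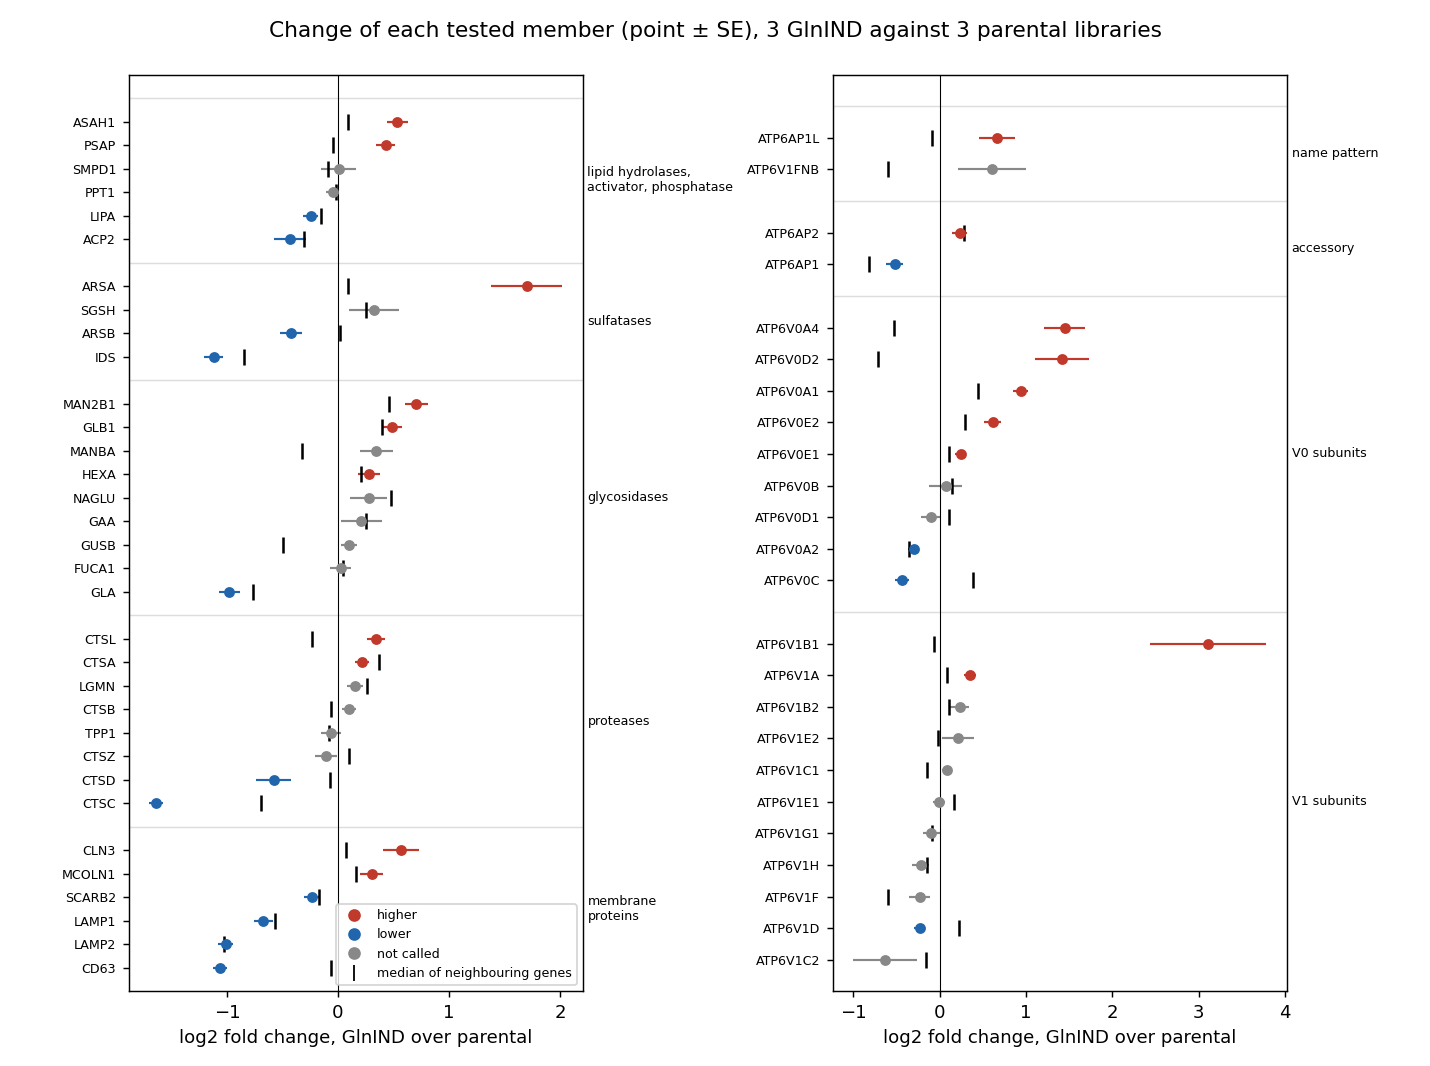
Log2 fold change (GlnIND minus parental) of the 57 tested members by role, with bars of 1 SE from the edgeR fit colour for the call and a black tick for the median change of neighbouring genes (described with the neighbours). CTSC lies lowest at -1.64, and the low-count subunit ATP6V1B1 lies highest.

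Summed CPM gives the mRNA of a role as a whole and is led by its most abundant members. Lysosomal membrane proteins summed to 842 ± 14.3 CPM (SD, n = 3) in parental and 508 ± 14.6 CPM in GlnIND libraries, proteases to 1289 ± 48.3 and 969 ± 28.1 CPM, and sulfatases to 389 ± 32.6 and 203 ± 2.15 CPM. Glycosidases summed to 294 ± 26.4 and 355 ± 6.80 CPM, and lipid hydrolases with activator and phosphatase to 755 ± 57.6 and 867 ± 24.9 CPM. In each of these 5 roles the libraries of the groups did not overlap, with 3 sums below and 2 above the parental range. The last of these sums is led by PSAP, an activator precursor and no hydrolase (351 and 473 CPM). Of the other genes in that role, ASAH1 was called higher, LIPA and ACP2 lower, and PPT1 and SMPD1 were not called. The protease sum is led by CTSC (353 and 113 CPM) and CTSD (337 and 225 CPM). The other proteases were called higher (CTSL and CTSA) or not called. IDS (338 and 155.5 CPM) leads the sulfatase sum, and of the other sulfatases ARSB was called lower, ARSA higher and SGSH not called. The 24 V-ATPase subunits summed to 1259 ± 57.4 CPM in parental and 1296 ± 12.9 CPM in GlnIND libraries, whose ranges overlapped. Scaling by library totals alone left the 5 roles separate in the same directions, but it also separated the V-ATPase sums, at 1109 to 1254 CPM in parental and 1360 to 1373 CPM in GlnIND libraries.

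**Figure D2:**
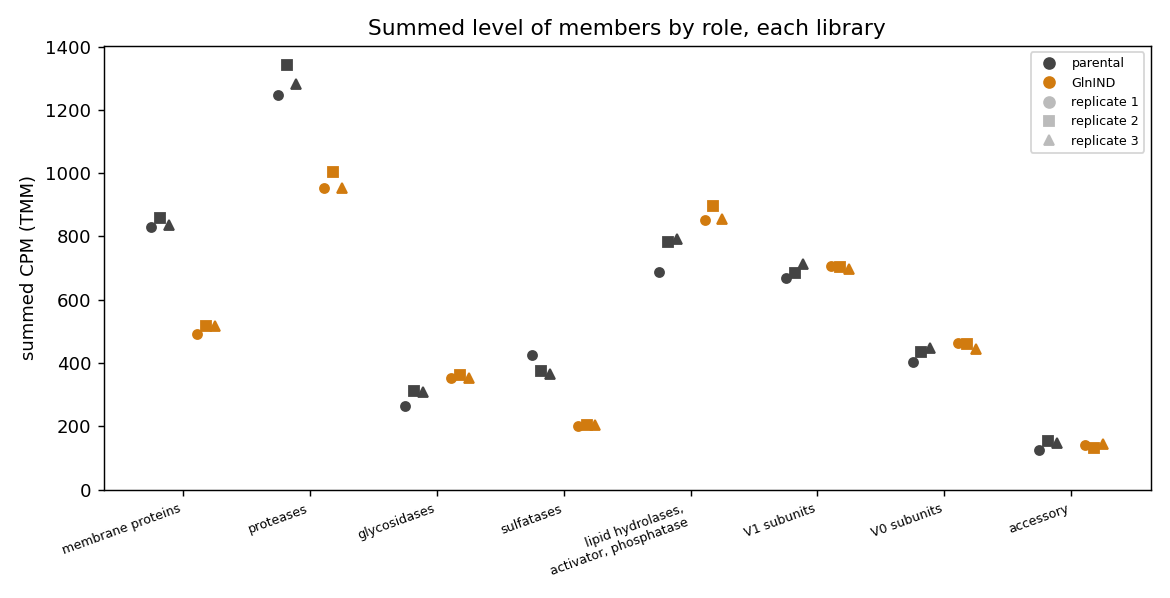
Summed CPM of the members of each role, 1 point per library, TMM-scaled. The membrane protein, protease and sulfatase sums lie lower in all 3 GlnIND libraries, the protease sum led by CTSC and CTSD and the sulfatase sum by IDS. The glycosidase sum lies higher, as does the sum of lipid hydrolases with activator and phosphatase, which is led by the activator precursor PSAP. The V1 and V0 sums of the groups overlap.

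The E-box was common in the promoters of these genes, and it is shown here for members that rose, fell or were not called. RefSeq promoters (GRCh38.p14, from 250 bases before to 50 bases after the gene start) were matched for 41 of the 61 members. The palindrome CACGTG was found in 13 of these 41 (31.7%), against 8.77% of 27305 genes, counting a gene if any of its listed promoters held it. The longer form TCACGTG, or CACGTGA on the other strand, which contains it, was found in 12 (29.3%), against 4.49%. The motif was present in 4 of 11 members that were higher in GlnIND, 4 of 14 that were lower and 4 of 13 that were not called. By role it was most common in membrane proteins, in 4 of 5 matched promoters, and was found in 3 of 7 V0 and 1 of 8 V1 promoters. A match describes the sequence and is not a measured binding site. The stretches shown run 5′ to 3′ on the gene's strand with CACGTG in capitals. They and the copy numbers come from the first listed promoter of each gene. In that promoter ARSB and IDS held no copy, although 1 of these 2 matched sulfatases, both lower in GlnIND, was counted above. LAMP1, CD63 and CTSD were lower in GlnIND, MCOLN1, CLN3, CTSA and ATP6V0E2 higher, and ATP6V0B and ATP6V0D1 were not called.
LAMP1, chr13:113297039-113297238, + strand, from 200 bases to 1 base before the start: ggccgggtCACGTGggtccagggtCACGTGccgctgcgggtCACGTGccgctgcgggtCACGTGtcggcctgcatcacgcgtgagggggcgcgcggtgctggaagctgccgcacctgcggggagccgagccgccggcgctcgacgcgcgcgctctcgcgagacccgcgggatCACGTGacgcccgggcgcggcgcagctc
CD63, chr12:55729150-55729209, − strand, from 200 to 141 bases before the start: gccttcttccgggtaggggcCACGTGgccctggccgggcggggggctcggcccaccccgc
CTSD, chr11:1763928-1763987, − strand, from 60 bases to 1 base before the start: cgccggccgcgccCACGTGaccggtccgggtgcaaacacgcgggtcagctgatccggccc
MCOLN1, chr19:7522564-7522623, + strand, from 60 bases to 1 base before the start: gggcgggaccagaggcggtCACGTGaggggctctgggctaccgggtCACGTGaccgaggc
CLN3, chr16:28492075-28492134, − strand, from 60 bases to 1 base before the start: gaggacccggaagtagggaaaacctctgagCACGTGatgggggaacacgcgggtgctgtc
CTSA, chr20:45891275-45891334, + strand, from 60 bases to 1 base before the start: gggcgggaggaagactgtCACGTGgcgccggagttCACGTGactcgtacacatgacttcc
ATP6V0E2, chr7:149872868-149872927, + strand, from 100 to 41 bases before the start: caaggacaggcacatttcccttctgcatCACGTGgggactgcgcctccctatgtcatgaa
ATP6V0B, chr1:43974880-43974939, + strand, from 80 to 21 bases before the start: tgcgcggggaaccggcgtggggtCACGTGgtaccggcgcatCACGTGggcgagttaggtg
ATP6V0D1, chr16:67481178-67481237, − strand, from 80 to 21 bases before the start: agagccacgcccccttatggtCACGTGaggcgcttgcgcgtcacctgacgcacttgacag
LAMP1 held 5 copies in this stretch and a sixth that spans its start, and MCOLN1, CTSA and ATP6V0B held 2 each. In the whole window of the first listed promoter, members with 2 or more copies were LAMP1, which fell, MCOLN1, CLN3 and CTSA, which rose, and GAA and ATP6V0B, which were not called.

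Among the 6 lysosomal membrane proteins, 4 fell (beside 27.9% of all genes) and 2 rose (beside 28.4%). Their median log2 fold change was -0.45. With the neighbours' median removed, 1 was higher and 1 lower, beside 23.8% and 25.1% of all genes, and the median was -0.02. The tetraspanin CD63, found on late endosomes, lysosomes and exosomes, had 264.6, 266 and 249 CPM in parental libraries 1 to 3 and 127.5, 124 and 122 CPM in GlnIND libraries 1 to 3. All GlnIND libraries lay below all parental libraries, a 2.09-fold lower level (log2 fold change -1.06, SE 0.06, adjusted p = 9.47e-07). LAMP2, a main glycoprotein of the lysosomal membrane that acts in autophagy, had 242, 238 and 229.9 CPM in parental and 112, 114 and 126 CPM in GlnIND libraries (log2 fold change -1.01, SE 0.07, adjusted p = 2.35e-06). Its relative LAMP1 had 173, 203 and 204 CPM in parental and 113, 129.6 and 120.4 CPM in GlnIND libraries (log2 fold change -0.67, SE 0.08, adjusted p = 0.000115). Both groups were separate for each of these genes. The receptor SCARB2, which carries glucocerebrosidase to the lysosome, was lower by less, at 118 ± 4.02 and 100.4 ± 5.45 CPM (n = 3 each, log2 fold change -0.24, adjusted p = 0.0142 in edgeR). Its call was lost without GlnIND library 1 (-0.20, adjusted p = 0.0622), under upper-quartile scaling (-0.14, adjusted p = 0.0875) and under scaling by totals only (-0.08, adjusted p = 0.304).

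The 2 membrane proteins that rose were less abundant. The calcium channel MCOLN1 had 18.7, 21.1 and 22.2 CPM in parental and 25.3, 24.0 and 27.2 CPM in GlnIND libraries (log2 fold change 0.31, SE 0.10, adjusted p = 0.0292). CLN3, the protein mutated in juvenile neuronal ceroid lipofuscinosis, had 9.72, 13.4 and 16.0 CPM in parental and 18.8, 20.1 and 18.96 CPM in GlnIND libraries (log2 fold change 0.57, SE 0.16, adjusted p = 0.0140). The parental libraries of CLN3 were spread, with library 1 lowest, and without it the change was 0.38 (adjusted p = 0.00184). The CLN3 call was lost without GlnIND library 2 (0.53, adjusted p = 0.0603). The MCOLN1 call was lost without parental library 2 (0.30, adjusted p = 0.0675) and without GlnIND library 1, 2 or 3 (0.30, 0.34 and 0.25, with adjusted p = 0.0853, 0.0538 and 0.136), and its change was 0.08 with the GC trend removed (adjusted p = 0.505).

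**Figure D3:**
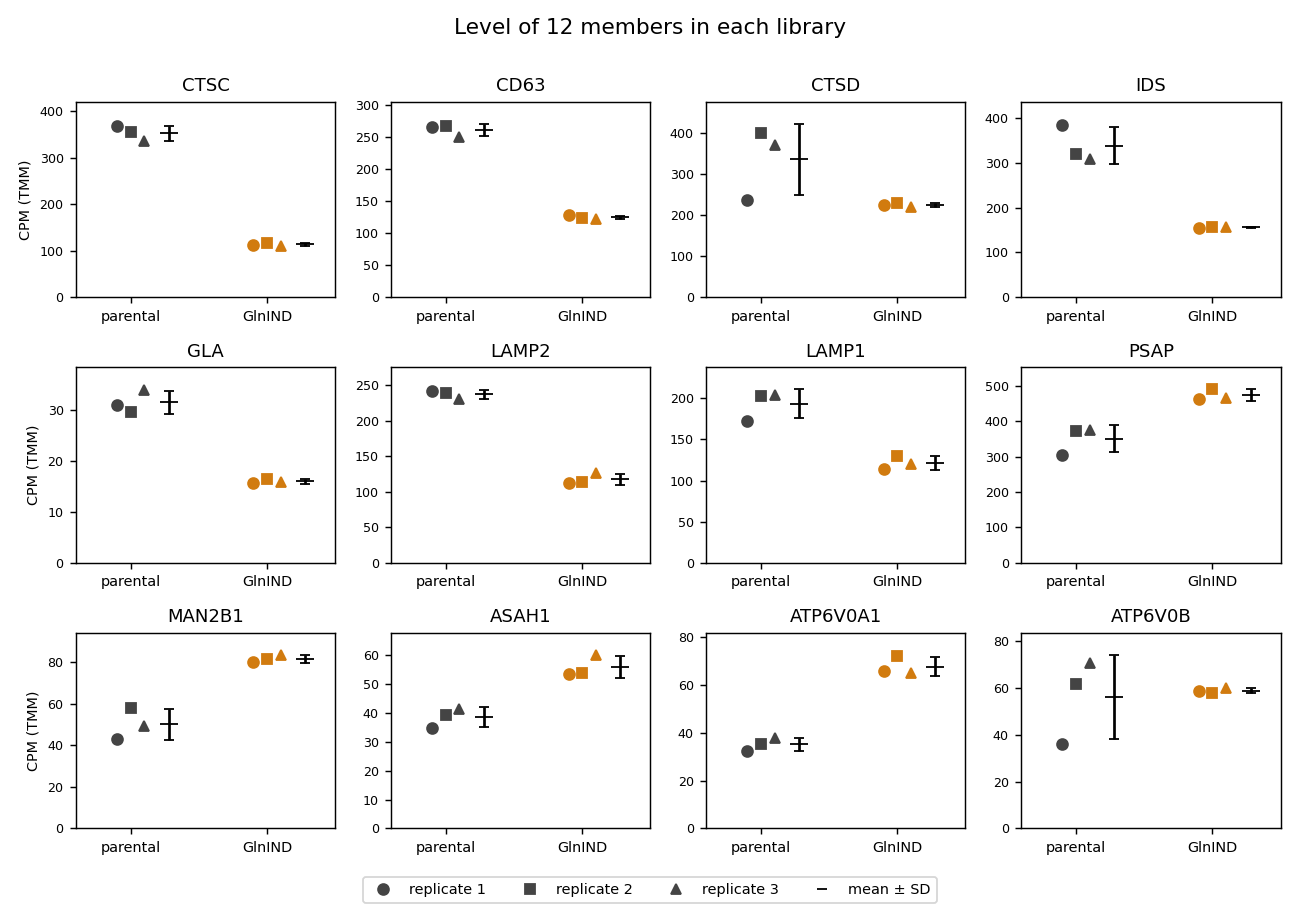
TMM-scaled CPM of 12 members in each library, with axes from 0, the symbol marking the replicate number and the bar the mean ± SD (n = 3). CTSC, IDS, CD63 and LAMP2 lie lower in every GlnIND library, PSAP, MAN2B1, ASAH1 and ATP6V0A1 lie higher, and parental library 1 stands apart from the other parental libraries for CTSD and ATP6V0B.

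Of the 8 proteases, 2 fell (beside 27.9% of all genes), 2 rose (beside 28.4%) and 4 were not called. CTSC, the dipeptidyl peptidase that activates granule serine proteases, had the largest fall of all tested members. It had 368, 354 and 336 CPM in parental and 113, 116 and 110.8 CPM in GlnIND libraries, with no overlap and little spread in either group. This is a 3.11-fold lower level (log2 fold change -1.64, SE 0.06, adjusted p = 9.61e-08). The aspartic protease CTSD had 238, 400.2 and 372 CPM in parental and 225, 231 and 219 CPM in GlnIND libraries (log2 fold change -0.58, SE 0.16, adjusted p = 0.0106). Parental library 1 was close to the GlnIND libraries for CTSD and far from the other parental libraries, and without it the change was -0.79. The cysteine endopeptidase CTSL had 58.6, 50 and 55.3 CPM in parental and 68.1, 71.2 and 68.5 CPM in GlnIND libraries, so it rose without overlap (log2 fold change 0.34, SE 0.08, adjusted p = 0.00474). CTSA, the carboxypeptidase that protects beta-galactosidase and sialidase, had 105, 106 and 100.3 CPM in parental and 115, 124 and 123 CPM in GlnIND libraries (log2 fold change 0.22, SE 0.06, adjusted p = 0.0161). That call was lost without parental library 2 or 3 (0.21 and 0.17, with adjusted p = 0.0577 and 0.0783) and without GlnIND library 2 or 3 (0.19 each, with adjusted p = 0.0859 and 0.0811). Its sign turned with the GC trend removed (-0.01). Of the CTSA exon bases, 10.4% overlap NEURL2 and 8.55% overlap PLTP on the opposite strand in GENCODE v29, and whether counting used the strand is not given in the sources used here.

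The uncalled proteases were not all alike. CTSB, an abundant cysteine cathepsin, had 132, 140.1 and 131 CPM in parental and 140.6, 151.5 and 140.4 CPM in GlnIND libraries, which do not overlap, yet its difference was not called (log2 fold change 0.10, adjusted p = 0.214). The same held for LGMN, the asparaginyl endopeptidase that processes cathepsins, with 52.7, 56.7 and 55.3 CPM in parental and 58.1, 63.0 and 62.2 CPM in GlnIND libraries (0.16, adjusted p = 0.0974). Both were called higher under upper-quartile scaling (0.19 and 0.25) and under scaling by totals only (0.25 and 0.31). The groups overlapped for CTSZ, a carboxypeptidase (172 ± 25.3 and 159 ± 6.20 CPM), and for the tripeptidyl peptidase TPP1 (79.8 ± 9.57 and 76.6 ± 2.97 CPM), and without parental library 1 their changes were 0.008 and 0.031.

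Of the 9 tested glycosidases, 3 rose (beside 28.4% of all genes), 1 fell (beside 27.9%) and 5 were not called. Their median log2 fold change was 0.28. That median was 0.10 without parental library 1. Removing the GC trend gave 0.025, and removing the neighbours' median gave 0.073. The lysosomal alpha-mannosidase MAN2B1 had 42.8, 57.7 and 49.4 CPM in parental and 79.7, 81.2 and 83.2 CPM in GlnIND libraries (log2 fold change 0.71, SE 0.10, adjusted p = 0.000309). GLB1, which removes terminal beta-galactose and is read out as senescence-associated beta-galactosidase, had 53.0, 61.0 and 64.9 CPM in parental and 82.8, 89.2 and 78.7 CPM in GlnIND libraries (log2 fold change 0.49, SE 0.09, adjusted p = 0.00135). Neither gene's groups overlapped. HEXA, the alpha subunit of hexosaminidase A, was higher by less, at 52.4 ± 6.57 and 63.5 ± 1.54 CPM (n = 3 each, log2 fold change 0.28, adjusted p = 0.0326 in edgeR). The HEXA change was 0.17 without parental library 1, and its call was lost without GlnIND library 1, 2 or 3 (0.29, 0.26 and 0.26, with adjusted p = 0.0790, 0.115 and 0.108).

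GLA, the alpha-galactosidase deficient in Fabry disease, was the glycosidase that fell. It had 31.0, 29.8 and 34.0 CPM in parental and 15.7, 16.6 and 15.9 CPM in GlnIND libraries (log2 fold change -0.98, SE 0.09, adjusted p = 2.45e-05). GUSB, a beta-glucuronidase also used as a reference gene, had 44.3, 43.8 and 44.2 CPM in parental and 46.6, 46.2 and 48.5 CPM in GlnIND libraries, separate by a narrow margin (log2 fold change 0.09, adjusted p = 0.285). It was called higher under upper-quartile scaling (0.19, adjusted p = 0.0478) and under scaling by totals only (0.25, adjusted p = 0.0148). The beta-mannosidase MANBA had 9.97, 9.84 and 8.27 CPM in parental and 12.2, 13.5 and 10.1 CPM in GlnIND libraries (0.35, adjusted p = 0.0661). MANBA was called without parental library 1 (0.39, adjusted p = 0.0131) and without GlnIND library 3 (0.44, adjusted p = 0.0410). It was also called under upper-quartile scaling (0.44) and scaling by totals only (0.50). The same held with the neighbours' median (0.67) or the GC trend (0.47) removed. NAGLU (7.22 ± 1.498 and 8.72 ± 0.387 CPM), GAA (18.4 ± 5.21 and 21.3 ± 1.02 CPM) and FUCA1 (21.5 ± 1.54 and 21.8 ± 0.403 CPM) were not called, and without parental library 1 the change of NAGLU went from 0.28 to 0.10, that of GAA, the acid alpha-glucosidase, from 0.21 to -0.01 and that of FUCA1 from 0.02 to -0.04.

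The sialidase NEU1 was listed with 1 count over all 6 libraries. Its row lies in a stretch of chromosome 6 in which most rows were nearly empty. Of the 40 rows nearest to NEU1 in RefSeq order, 32 had at most 6 counts in all libraries together and 25 had none. These rows include genes that most cells express, such as VARS1 (16 counts) and LSM2 (22 counts). ATP6V1G2, a neuronal V1 subunit in the same stretch, had 30 of 40 neighbouring rows at 6 counts or fewer. The listed level of NEU1 and ATP6V1G2 therefore does not give their expression.

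Among the 4 sulfatases, 2 fell (beside 27.9% of all genes), 1 rose (beside 28.4%) and 1 was not called. IDS, which removes sulfate from heparan and dermatan sulfate and is deficient in Hunter syndrome, was the most abundant. It had 384.5, 320.0 and 308 CPM in parental and 154, 156 and 157 CPM in GlnIND libraries, a 2.17-fold lower level with no overlap (log2 fold change -1.12, SE 0.09, adjusted p = 5.53e-06). IDS has a nearby pseudogene copy, so reads may be split between the copies depending on how multi-mapping reads were counted. ARSB, which acts on dermatan and chondroitin sulfate, had 34.0, 39.0 and 42.3 CPM in parental and 28.2, 28.0 and 29.6 CPM in GlnIND libraries (log2 fold change -0.42, SE 0.10, adjusted p = 0.00454). ARSA, which acts on sulfatide, rested on few counts. It had 0.744, 1.66 and 0.936 CPM in parental and 3.41, 2.79 and 4.53 CPM in GlnIND libraries (log2 fold change 1.70, SE 0.32, adjusted p = 0.00141). Its groups did not overlap, though the spread was wide in both. SGSH, the heparan N-sulfatase, had 12.1 ± 4.26 and 15.2 ± 0.657 CPM and was not called (0.33), and without parental library 1 its change was 0.05.

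Of the 6 lipid hydrolases, activator and phosphatase genes, 2 rose (beside 28.4% of all genes), 2 fell (beside 27.9%) and 2 were not called. PSAP, the precursor of the saposins that present sphingolipids to their hydrolases, was the most abundant member of this role. It had 306, 372 and 375 CPM in parental and 462, 492 and 465 CPM in GlnIND libraries (log2 fold change 0.43, SE 0.08, adjusted p = 0.0018). The acid ceramidase ASAH1, which releases sphingosine from ceramide, had 34.8, 39.2 and 41.4 CPM in parental and 53.4, 53.7 and 60.1 CPM in GlnIND libraries (log2 fold change 0.54, SE 0.09, adjusted p = 0.000833). Both genes were higher in every GlnIND library. The cholesteryl ester and triglyceride hydrolase LIPA had 84.3, 87.7 and 90.8 CPM in parental and 75.6, 71.0 and 75.3 CPM in GlnIND libraries (log2 fold change -0.24, SE 0.07, adjusted p = 0.0118). The LIPA call was lost without GlnIND library 2 (-0.22, adjusted p = 0.0564), under upper-quartile scaling (-0.15) and under scaling by totals only (-0.09).

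The lysosomal acid phosphatase ACP2 was called although its groups overlapped, with 17.01, 22.1 and 23.3 CPM in parental and 13.7, 17.3 and 15.1 CPM in GlnIND libraries (log2 fold change -0.44, SE 0.14, adjusted p = 0.0256). GlnIND library 2 lay above parental library 1. The ACP2 call was lost without parental library 2 or 3 (-0.41 and -0.37, with adjusted p = 0.0650 and 0.0604), without GlnIND library 1 or 3 (-0.37 and -0.43, with adjusted p = 0.0982 and 0.0776), and under upper-quartile factors (-0.34) and library totals alone (-0.28). The palmitoyl-protein thioesterase PPT1 (229 ± 3.07 and 221 ± 11.4 CPM) and the acid sphingomyelinase SMPD1 (27.8 ± 6.58 and 27.9 ± 1.76 CPM) were not called, and the SMPD1 change was -0.18 without parental library 1. Of the PPT1 exon bases, 27.3% overlap the opposite-strand gene CAP1, so reads of these genes may not be told apart.

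In the V0 sector of the V-ATPase, 5 of 9 tested subunit genes rose, 2 fell and 2 were not called, with a median log2 fold change of 0.25. Of all genes tested, 28.4% were higher and 27.9% lower. Without parental library 1, 4 V0 genes were lower, beside 32.9% of all genes. The membrane subunit a, which holds the path of the proton, is made from 4 paralogous genes, and their balance differed between the lines. ATP6V0A1 had 32.4, 35.5 and 37.8 CPM in parental and 65.7, 72.2 and 64.9 CPM in GlnIND libraries, well separated (log2 fold change 0.94, SE 0.09, adjusted p = 1.79e-05). ATP6V0A2, found on the Golgi and endosomes, had 91.1, 89.5 and 84.4 CPM in parental and 70.7, 72.9 and 71.4 CPM in GlnIND libraries (log2 fold change -0.30, SE 0.07, adjusted p = 0.0034). The ATP6V0A2 change was -0.15 with library totals alone, where it was not called (adjusted p = 0.0699). ATP6V0A4, known from kidney, was at a low level, with 1.19, 0.915 and 0.936 CPM in parental and 2.83, 3.08 and 2.46 CPM in GlnIND libraries (log2 fold change 1.45, SE 0.24, adjusted p = 0.000655). The fourth paralog, TCIRG1, known from osteoclasts, is no member by name and had 28.4 ± 6.83 CPM in parental and 43.3 ± 3.10 CPM in GlnIND libraries (log2 fold change 0.61, adjusted p = 0.00741 in edgeR, n = 3 each).

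Per kilobase of exon, ATP6V0A1 took 27.8% to 28.0% of the summed level of the 4 genes in parental libraries and 37.4% to 40.9% in GlnIND libraries. ATP6V0A2 took 35.4% to 45.0% in parental and 23.5% to 24.4% in GlnIND libraries. ATP6V0A2 thus had the largest share of subunit a transcripts in 2 of 3 parental libraries, and ATP6V0A1 exceeded it in all GlnIND libraries. The shares of TCIRG1 overlapped, at 25.9% to 36.0% and 33.5% to 37.4%. ATP6V0A4 took 2.00% or less in every library. These shares rest on the union of GENCODE v29 exons as the length of each gene.

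**Figure D4:**
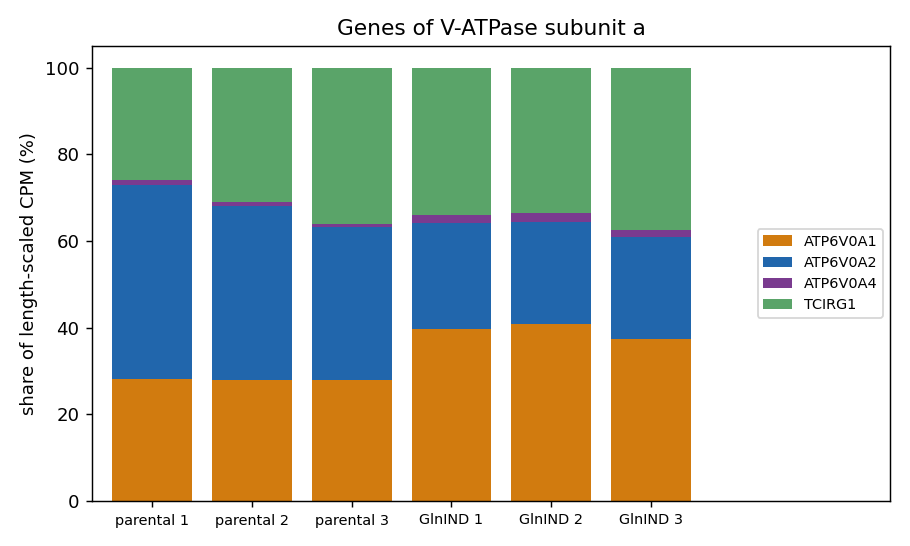
Share of the summed level per kilobase of exon of the 4 subunit a genes in each library, in percent, as stacked bars. The ATP6V0A1 share lies at 27.8% to 28.0% in parental and 37.4% to 40.9% in GlnIND libraries, and the ATP6V0A2 share lies lower in every GlnIND library.

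Other V0 subunits differed less. The proteolipid ATP6V0C, which forms most of the rotating c ring, had 82.4, 76.9 and 71.0 CPM in parental and 58.4, 54.6 and 57.4 CPM in GlnIND libraries, so it fell without overlap (log2 fold change -0.44, SE 0.08, adjusted p = 0.00108). The other ring subunit, ATP6V0B (subunit c″), had 36.2, 61.7 and 70.5 CPM in parental and 58.8, 57.9 and 59.9 CPM in GlnIND libraries. Its parental spread exceeded any difference (0.07, adjusted p = 0.776), and without parental library 1 it was called lower (-0.18, adjusted p = 0.0159). For subunit d, which couples V1 to the ring, ATP6V0D1 had 44.2, 52.4 and 61.3 CPM in parental and 53.1, 47.1 and 46.9 CPM in GlnIND libraries and was called only without parental library 1 (-0.23, adjusted p = 0.00558, against -0.10 with it) and with the GC trend removed (-0.28). Its low-level paralog ATP6V0D2 rose from 0.694, 0.686 and 1.35 CPM to 2.15, 2.33 and 2.84 CPM (log2 fold change 1.42, SE 0.31, adjusted p = 0.00321). ATP6V0D2 stayed at 4.35% or less of subunit d transcripts per kilobase in every library.

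Both genes of the small subunit e rose. ATP6V0E1, the V0 subunit gene with the highest mean CPM, had 94.6, 94.0 and 96.8 CPM in parental and 114.8, 115 and 108.6 CPM in GlnIND libraries (log2 fold change 0.25, SE 0.06, adjusted p = 0.00735). ATP6V0E2 had 19.7, 22.5 and 23.3 CPM in parental and 35.2, 33.8 and 31.2 CPM in GlnIND libraries (log2 fold change 0.61, SE 0.10, adjusted p = 0.000585). The ATP6V0E2 share of subunit e transcripts per kilobase was 10.4% to 11.9% in parental and 13.9% to 14.6% in GlnIND libraries, which do not overlap. Of the ATP6V0E2 exon bases, 21.4% overlap the antisense gene ATP6V0E2-AS1, which had 973 counts in all libraries beside 3648 for ATP6V0E2.

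In the V1 sector, 8 of 11 tested subunit genes were not called, 2 rose (beside 28.4% of all genes) and 1 fell (beside 27.9%). The catalytic subunit gene ATP6V1A had 69.9, 69.7 and 76.4 CPM in parental and 92.5, 90.1 and 92.3 CPM in GlnIND libraries, with no overlap (log2 fold change 0.35, SE 0.07, adjusted p = 0.00183). ATP6V1D, a subunit of the central rotor, had 120.1, 110.5 and 118 CPM in parental and 104, 94.4 and 97.9 CPM in GlnIND libraries (log2 fold change -0.23, SE 0.07, adjusted p = 0.0156). The ATP6V1D call was lost without GlnIND library 2 or 3 (-0.21 and -0.24, with adjusted p = 0.0696 and 0.0536), under upper-quartile scaling (-0.14) and under scaling by totals only (-0.08). It shares 13.7% of its exon bases with the abundant opposite-strand gene EIF2S1. The third called gene, ATP6V1B1, a B subunit isoform known from kidney, had 4 counts over the parental and 47 over the GlnIND libraries. Taken as read pairs, its counting ratio was 9.23 (exact 95% interval 2.29 to 80.7, which covers counting error only). Its CPM was 0.104 or less in each parental and 0.493 to 0.916 in GlnIND libraries, and as it passed the filter only through the GlnIND libraries its call is no support for a change.

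V1 subunits B, C and E each had 1 dominant gene in both lines. Subunit G is not compared, because the listed level of ATP6V1G2 may not give its expression. ATP6V1B2, the general B subunit, had 68.0, 91.8 and 88.7 CPM in parental and 94.2, 100.8 and 96.7 CPM in GlnIND libraries, which do not overlap, but its difference was not called (0.23, adjusted p = 0.0904) and was 0.10 without parental library 1. ATP6V1C1, the V1 gene with the highest CPM, had 170.7, 174 and 180.5 CPM in parental and 183, 191 and 183 CPM in GlnIND libraries (0.08, adjusted p = 0.245). ATP6V1B2 and ATP6V1C1 were both called higher with upper-quartile factors (0.32 and 0.18) and library totals alone (0.38 and 0.24). Both were also called higher with the GC trend removed (0.36 and 0.23), and ATP6V1C1 with the neighbours' median removed (0.23). Per kilobase, ATP6V1B2, ATP6V1C1 and ATP6V1E1 made up mean shares of 97.2% or more of their subunits in both groups. ATP6V1E1 had 95.01 ± 5.68 and 94.6 ± 1.53 CPM and ATP6V1G1 64.7 ± 7.90 and 60.6 ± 4.15 CPM, neither called. ATP6V1E2 had 4.37 ± 0.898 and 5.07 ± 0.402 CPM. ATP6V1C2 was below 1.15 CPM in every library, and 31.1% of its exon bases overlap PDIA6, which had 34988 counts beside 98 for ATP6V1C2. ATP6V1G3 had 2 and 3 counts in the groups.

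ATP6V1F of the central stalk (32.7 ± 4.79 and 27.9 ± 2.81 CPM) and the regulatory subunit ATP6V1H (45.7 ± 5.18 and 39.3 ± 1.78 CPM) were not called with all libraries (adjusted p = 0.141 and 0.0859 in edgeR, n = 3 each). Without parental library 1, ATP6V1F (-0.36) and ATP6V1H (-0.32) were called lower. The V-ATPase as a whole then had 8 higher and 8 lower of 22 tested members (36.4% each), beside 32.3% and 32.9% of all genes. With all libraries it had 8 higher (36.4%) and 4 lower (18.2%), beside 28.4% and 27.9% of all genes. ATP6V1B1 is among the 8 higher in both fits, although it passed the filter through the GlnIND libraries alone and supports nothing.

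The accessory proteins, which help to assemble and sort the V-ATPase, moved in opposite directions. ATP6AP1 had 48.0, 61.2 and 59.0 CPM in parental and 38.6, 39.6 and 39.0 CPM in GlnIND libraries (log2 fold change -0.52, SE 0.10, adjusted p = 0.00154). ATP6AP2, also called the prorenin receptor, had 76.1, 91.2 and 87.4 CPM in parental and 103, 92.6 and 103.2 CPM in GlnIND libraries (log2 fold change 0.23, SE 0.09, adjusted p = 0.0415). Neither gene's groups overlapped, though GlnIND library 2 came close to parental library 2 for ATP6AP2. The ATP6AP2 call was lost without parental library 3 (0.23, adjusted p = 0.0664) and without GlnIND library 1, 2 or 3 (0.20, 0.27 and 0.19, with adjusted p = 0.158, 0.0522 and 0.162). Its change was 0.15 without parental library 1, and DESeq2 gave an adjusted p of 0.0638. Of the rows that share only the name pattern, ATP6AP1L had 2.37 ± 0.472 and 3.75 ± 0.462 CPM (log2 fold change 0.66, adjusted p = 0.0220 in edgeR, n = 3 each). The ATP6AP1L call was lost without parental library 2 (0.56, adjusted p = 0.0743) and without GlnIND library 2 or 3 (0.68 and 0.55, with adjusted p = 0.0551 and 0.0987). ATP6V1FNB had 0.371 ± 0.101 and 0.564 ± 0.0662 CPM and was not called, and ATP6V0CP3 was listed at 0.

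Several members lie among genes that changed in the same direction. For each tested member the median log2 fold change of the nearest 20 tested genes on each side was taken in RefSeq order. The neighbours' median was -1.03 around LAMP2, beside -1.01 for LAMP2 itself, -0.57 around LAMP1 (34 neighbours), -0.77 around GLA, -0.85 around IDS and -0.69 around CTSC. In all, 10 members had neighbours with a median below -0.5 and none had neighbours above 0.5. Not all of the 10 fell with their neighbours. ATP6V0A4 (1.45) and ATP6V0D2 (1.42) were called higher. ATP6V1FNB (0.61) and ATP6V1F (-0.23) were not called. Across the 57 members, the member's change and its neighbours' median had a Pearson r of 0.333 and a Spearman rho of 0.404, given as a description. LAMP2, GLA, IDS and ATP6AP1 lie on the X chromosome, as does ATP6AP2, which rose.

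Taking the neighbours' median off each gene's change and testing again left 18 members higher and 7 lower, beside 23.8% and 25.1% of all genes, against 19 and 15 before. Of the 34 called members, 19 kept call and direction, 12 of them higher and 7 lower. Among the membrane proteins, LAMP1 (-0.10, adjusted p = 0.329), LAMP2 (0.02, adjusted p = 0.855), SCARB2 (-0.06) and MCOLN1 (0.15) were no longer called, while CD63, whose neighbours had a median of -0.06, stayed at -0.998. CTSC (-0.94) and IDS (-0.27, adjusted p = 0.0232) stayed lower, and GLA (-0.21, adjusted p = 0.0890) lost its call. The calls of MAN2B1 (0.25, adjusted p = 0.0722), GLB1 (0.09), HEXA (0.07), LIPA (-0.09), ACP2 (-0.13) and ATP6V0E1 (0.13) were also lost. ATP6AP1, whose neighbours had a median of -0.82, changed from lower to higher (0.30, adjusted p = 0.0302). CTSA (-0.15), ATP6AP2 (-0.05) and ATP6V0A2 (0.05) also changed sign. In the V-ATPase, ATP6V0C moved from -0.44 to -0.82, since its neighbours had a median of 0.39, and ATP6V0A1 from 0.94 to 0.49. GUSB, not called before, lay above its neighbours (0.59, adjusted p = 0.000152, neighbours' median -0.49). The part of the surrounding region in each member's change was not tested.

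**Figure D5:**
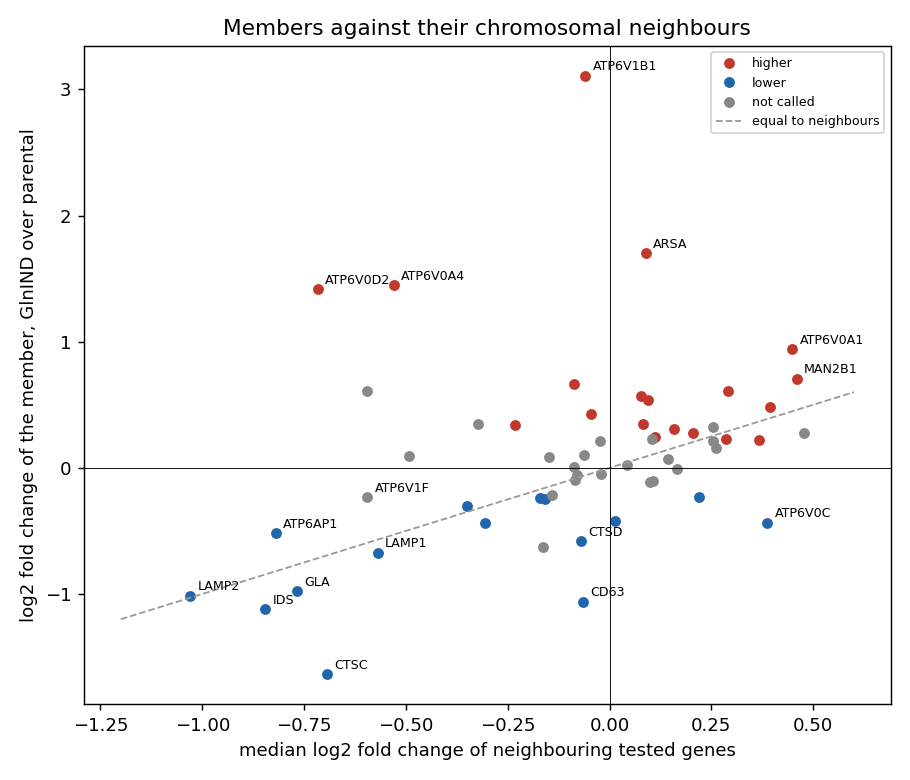
Log2 fold change of each tested member (vertical axis) against the median log2 fold change of its nearest tested genes (horizontal axis), with a line of equality. LAMP2, LAMP1 and GLA lie near the line, and CD63 and CTSC lie far below it.

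Other genes of the lysosome were taken from lists that exclude the members, and their counts are read beside the 28.4% higher and 27.9% lower of all genes tested. Of 30 tested further lysosomal hydrolases, 9 were higher (30%), 10 lower (33.3%) and 11 not called. The largest falls were in CTSS, a cysteine cathepsin of antigen-presenting cells (6.39 ± 0.992 and 1.54 ± 0.283 CPM, log2 fold change -2.05), and SIAE, a sialic acid esterase (21.1 ± 2.72 and 7.60 ± 0.696 CPM, -1.47), whose neighbours had a median of -0.93 and which shares 28.4% of its exon bases with TBRG1 on the opposite strand. Of 21 further membrane and transport proteins, 8 were higher (38.1%), 5 lower (23.8%) and 8 not called. The cholesterol exporter NPC1 had 82.7, 90.6 and 95.3 CPM in parental and 242, 253 and 244.8 CPM in GlnIND libraries, with no overlap (log2 fold change 1.46, SE 0.07, adjusted p = 3.28e-07), beside 0.94 for ATP6V0A1, the largest rise among members above 10 CPM. The cation channel TPCN2 had 8.23 ± 2.63 and 18.1 ± 1.30 CPM (1.14), and its call was lost with the neighbours' median of 0.63 taken off (0.51, adjusted p = 0.0623). Of 13 further V-ATPase subunits, assembly factors and regulators, 6 were higher (46.2%), 3 lower (23.1%) and 4 not called, and 3 were higher and 3 lower with the neighbours' median removed. The assembly chaperone VMA21 fell from 212 ± 5.10 to 90.7 ± 5.63 CPM (log2 fold change -1.23), with a neighbours' median of -0.90 and -0.33 left after taking it off, and RNASEK rose at a low level (1.49 ± 0.453 and 2.65 ± 0.154 CPM, 0.84). The RNASEK call was lost without parental library 3 (0.61, adjusted p = 0.0676), without GlnIND library 2 or 3 (0.78 and 0.85, with adjusted p = 0.0692 and 0.0529) and with its neighbours' median taken off (0.63, adjusted p = 0.0676).

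All 3 tested MiT/TFE factors were called higher in GlnIND, as were 28.4% of all genes, but TFEB needed the GlnIND libraries to pass the filter. MITF had 44.4, 42.0 and 39.1 CPM in parental and 87.4, 86.9 and 87.2 CPM in GlnIND libraries (log2 fold change 1.06, SE 0.07, adjusted p = 3.07e-06). TFEB was at a low level, with 0.397, 1.26 and 0.624 CPM in parental and 2.65, 2.79 and 2.92 CPM in GlnIND libraries (log2 fold change 1.90, SE 0.35, adjusted p = 0.00117). It passed the filter on low counts in all GlnIND but only 2 parental libraries, so its call is no support for a change. TFE3 had 43.4, 52.1 and 49.1 CPM in parental and 65.6, 65.3 and 65.1 CPM in GlnIND libraries (log2 fold change 0.44, SE 0.08, adjusted p = 0.00147), and its change was -0.09 after its neighbours' median of 0.53 was taken off. TFEC had 0 counts in parental and 10 in GlnIND libraries and was not tested. The whole list of MiT/TFE factors and their regulators had 7 higher (50%, TFEB among them), 3 lower (21.4%) and 4 not called of 14 tested, with a median log2 fold change of 0.15. With the neighbours' median removed, 4 were higher and 2 lower, and the median was -0.08. These are transcript levels, and the location of the proteins, through which the factors are regulated, was not measured.

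Genes that tag hydrolases with mannose 6-phosphate or sort them had 6 higher (46.2%), 3 lower (23.1%) and 4 not called of 13 tested, and 3 higher and 3 lower with the neighbours' median removed. TMEM251, needed to retain the tagging enzyme in the Golgi, had 22.2 ± 3.52 and 41.2 ± 5.30 CPM (log2 fold change 0.90), and GNPTG, a subunit of that enzyme, had 9.29 ± 1.25 and 16.4 ± 1.74 CPM (0.82). The GNPTG call was lost with its neighbours' median taken off (0.34, adjusted p = 0.0603). GNPTG shares 41.8% of its exon bases with UNKL on the opposite strand. Both mannose 6-phosphate receptors, which were singled out after their values were seen, fell. M6PR had 179, 167 and 151.5 CPM in parental and 95.2, 97.7 and 97.4 CPM in GlnIND libraries (log2 fold change -0.78, SE 0.07, adjusted p = 2.08e-05), and IGF2R had 199.9, 187 and 175 CPM and 137, 135.5 and 139.7 CPM (-0.45, SE 0.07, adjusted p = 0.000347). Of the M6PR exon bases, 40.04% overlap PHC1 on the opposite strand, which had 1858 counts beside 16448 for M6PR. Of 7 tested inhibitors of cathepsins, 3 were higher, 2 lower and 2 not called. CST6, 1 of the 7, passed the filter on low counts in all GlnIND but only 1 parental library, so its difference supports nothing. With a filter of at least 1 CPM in 3 libraries, 6 inhibitors were tested, 2 higher and 2 lower. Only 1 inhibitor was higher with DESeq2, with the GC trend removed, without parental library 2, and without GlnIND library 2 or 3. Removing the neighbours' median left 1 higher and 0 lower. The cystatin CST1 had 1.00 ± 0.0580 and 1.79 ± 0.610 CPM (0.84, edgeR adjusted p = 0.0423, n = 3 each). Its call was lost without parental library 2 or 3 (0.84 and 0.77, with adjusted p = 0.0897 and 0.103), without GlnIND library 2 or 3 (0.89 and 0.53, with adjusted p = 0.0787 and 0.205) and with DESeq2 (adjusted p = 0.101). The serpin SERPINB1 had 60.2 ± 1.92 and 44.4 ± 2.50 CPM (-0.44), and its call was lost with its neighbours' median taken off (-0.19, adjusted p = 0.0587).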

How the data were processed

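Polyadenylated RNA of 6 MDA-MB-231 libraries was sequenced. The deposited values are whole-number gene counts made by the authors with STAR and featureCounts on hg19, per the submitters' processing notes. Their versions, the annotation, strand setting and treatment of multi-mapping reads are not given in the sources used here. Most low counts were even (60.6% to 65.0% of values under 20), as when both ends of a pair are counted, so 6 counts, or 0.244 to 0.329 CPM, is taken as the floor. A combined matrix was not used, because its replicates 1 and 3 are exchanged within each group against the single-library tables.

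The counts were filtered (filterByExpr), scaled by TMM and tested by group with edgeR 4.0.16 (R 4.3.3) on 13949 genes, with adjusted p under 0.05 as the threshold. CPM are counts scaled by the library total times its TMM factor; the floor uses totals alone. The fit was tested on simulated data with fewer changed genes than here and no library that stood apart. That test therefore does not cover these features of the data. Alternatives were other scalings and filters, each library left out, a replicate block, DESeq2 1.42.0 and removal of the neighbours' median. Removal of the GC trend was chosen after seeing the data. Members and lists were chosen with earlier results of these data known, so lists are described and not tested. Values per library are given, by role, for the 2 largest called rises and falls above 1 CPM, the most abundant member, members above 10 CPM whose call and overlap disagree, and V-ATPase paralogs. From each list the 2 largest called changes above 1 CPM and all MiT/TFE factors are named. Promoters are from RefSeq (GRCh38.p14), and gene order from RefSeq serves only to find neighbours.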

Additional observations from a re-analysis of the deposited data

How the results depend on the processing

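There were 15 alternatives. Of the 34 called members, 16 kept call and direction in every alternative in which they were tested, and of the 23 not called, 12 were called under none. ATP6V1B1 is among the 16, although it was tested in only 14 alternatives and its difference supports nothing. With 1 library left out, 10 called members lost the call under at least one of the 6 omissions. The members' median log2 fold change, 0.10 with all libraries and TMM factors, was 0.187 under upper-quartile scaling, 0.248 with library totals alone and -0.011 with the GC trend removed. Lower V-ATPase members numbered 4, and 2 with library totals alone, 2 with the neighbours' median removed, 7 with the GC trend removed (30.1% of all genes) and 3 to 8 with a library left out, the 8 without parental library 1 (32.9% of all genes). Higher hydrolase and membrane protein members numbered 10, and 6 to 11 with a library left out, the 6 without GlnIND library 2, where the share of all genes called higher also went from 28.4% to 22.5%. With the neighbours' median removed, 7 members in all and 5 hydrolase and membrane protein members were lower. Apart from the GC trend and the neighbours, whose removal is the change itself, the cause was not tested. Members that turned in sign with the neighbours' median removed were LAMP2 (0.017), CTSA (-0.151), LGMN (-0.107), TPP1 (0.020), GAA (-0.044), NAGLU (-0.201), FUCA1 (-0.018), ATP6AP1 (0.30), ATP6AP2 (-0.055), ATP6V0A2 (0.049), ATP6V0B (-0.073) and ATP6V1F (0.364). With the GC trend removed they were CTSA (-0.011), CTSB (-0.017), GAA (-0.025), GUSB (-0.035), FUCA1 (-0.003), SMPD1 (-0.188), ATP6V0B (-0.070) and ATP6V1E1 (0.001). With library totals alone they were CTSZ (0.047), TPP1 (0.095), PPT1 (0.104), ATP6V0D1 (0.049), ATP6V1E1 (0.147) and ATP6V1G1 (0.059), with upper-quartile factors TPP1 (0.032), PPT1 (0.042) and ATP6V1E1 (0.085), and SMPD1 with RLE factors (-0.005) and DESeq2 (-0.009). With a library left out, uncalled members crossed 0: CTSZ (-0.209 to 0.008), TPP1 (-0.146 to 0.031), GAA (-0.013 to 0.366), FUCA1 (-0.043 to 0.044), SMPD1 (-0.177 to 0.148), ATP6V0B (-0.177 to 0.249), ATP6V0D1 (-0.225 to 0.001) and ATP6V1E1 (-0.064 to 0.016). Same-numbered libraries of the groups did not deviate together (correlations -0.0629, 0.0299 and -0.0370), so the numbers were not taken to pair them. A fit with the replicate number as a block gave 18 higher and 15 lower members (26.7% and 25.7% of all genes) and among the called members lost ATP6AP2 alone (0.233, adjusted p = 0.0719). Members under a few CPM, such as ATP6V1B1 and ARSA, are limited by depth.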
